A study of Bos taurus with 12 samples.

Results

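Solute carrier (SLC) genes encode membrane proteins that move amino acids, sugars, ions, metals, nucleotides, lipids and many other solutes across the plasma membrane and the membranes of organelles. The members described here are the probes, controls left out, whose printed gene symbol starts with SLC and a digit, without SLC2A1 and SLC25A20. They numbered 118 of 15208 probes and stood for 114 genes. A probe was kept when 3 or more of the 4 arrays of some group had it flagged as well above background by the scanner software, and the brightest kept probe stood for its gene. That left 95 SLC genes among the 12337 genes tested, and the other 19 SLC genes were too dim to test. SLC9A3R1 and SLC9A3R2 carry such symbols and so belong to the set, although they encode scaffold proteins that regulate an exchanger.

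Expression was measured in the corpus luteum of 12 Japanese-Black cows, with 1 array per cow and n = 4 cows per group. The NP15 cows were cyclic and not pregnant, on day 15, the P15 cows were on day 15 of gestation, and the P18 cows were on day 18 of gestation, with the insemination day taken as day 1. The labels name no treatment and no genetic change in any group, and cyclic cows of day 18 were not analysed here, so P18 vs NP15 sets both a later day and pregnancy against the cycle. The arrays were read in 1 colour, and each value is the log2 of a probe's brightness minus that of the array's 75th percentile. A value of 0 therefore marks the 75th percentile, and changes are differences of such log2 values. Levels are compared only between arrays for the same probe, because probes differ in how strongly they bind.

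Amino acid carriers of the plasma membrane work as uniporters, as sodium-coupled pumps or as obligatory exchangers, and some of them need a second protein chain to reach the surface. Most SLC25 carriers sit in the inner mitochondrial membrane and pass ADP, ATP, phosphate and metabolites between matrix and cytosol. In the corpus luteum, the gland that forms from the ovulated follicle and secretes progesterone, steroid synthesis starts in mitochondria and draws on a rich blood supply, so that carriers for fuels, ions and cofactors are part of its ordinary equipment.

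The number of arrays, 4 per group, limits the precision, and p-values measure the spread between cows. The NP15 and P15 arrays shared slide 1 and scan 1, in slide rows 1 and 2. The P18 arrays lay alone on slide 2 and scan 2, so for both comparisons with P18 the group cannot be told apart from slide and scan. For P15 vs NP15 it cannot be told apart from the slide row. The negative controls had a net signal of 80.4 to 99.3 in P18, against 35 to 38.8 in NP15 and 34.1 to 40 in P15. The lowest value that counted as well above background was correspondingly higher in P18, -6.08 to -5.36, against -8.09 to -7.34 in NP15 and -7.56 to -6.74 in P15. Of the 95 SLC probes, 98.9% to 100% were well above background on the NP15 arrays, 92.6% to 98.9% on the P15 arrays and 82.1% to 88.4% on the P18 arrays. The fourth NP15 array stood apart from the other 3: it held the highest or the lowest NP15 value for 70 of the 95 SLC genes (73.7%, and 73.8% of all genes), against 38 to 42 genes for each of the others. The 8 markers of luteal steroidogenic cells fixed for the tissue (STAR and CYP11A1 among them) were well above background in every group, with a mean log2 value over the list of 4.26 to 4.82 per array. In bulk tissue, fewer cells of a type and less RNA per cell cannot be told apart.

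Probes of some genes described below are shown by the last 30 of their 60 bases, copied from the deposited scanner files in the order given there. Capitals mark the letters AATAAA, the common form of the poly(A) signal, and lower case is used elsewhere. SLC6A9, SLC38A3, SLC39A4 and SLC39A5 moved in both comparisons with P18. SLC12A2 was measured by a pair of probes in different places on the array. SLC25A4, SLC25A5 and SLC25A6 encode related ADP/ATP carriers and are shown to compare their probes.
SLC6A9: ccgaccatccgcgcaccactaggattttaa
SLC38A3: atctccaacctctccatcgccgtcatgtat
SLC39A4: cgctgctcctgaacgtggcctcggcgctca
SLC39A5: tcaataggattttAATAAAcagaacccatc
SLC12A2, array row 192: cagaagttactgcAATAAAggaagtggatt
SLC12A2, array row 46: catcagagtgtccttaccttctattcttaa
SLC25A4: tatataattaactgaagaactgatcatgaa
SLC25A5: aagccatttccatgatgacgatgggaccca
SLC25A6: ccgtcgggcatttccgctgcggacAATAAA

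AATAAA was present in 21 of the 118 SLC probes (17.8%) and in 11.3% of all 15208 probes, and its reverse complement TTTATT was present in 5.93% and 4.14%. The median GC content of the whole probes was 43.3% in both sets. The 3 ADP/ATP carrier probes shared no run longer than 7 bases, the SLC12A2 probes none longer than 4, and probes of different SLC genes none longer than 14. SLC5A7, a choline transporter, was the exception within a gene, with 1 sequence of 60 bases printed at 2 places. Its spots were not well above background on any array apart from 1 spot on the third NP15 array, which read -5.49 while its twin on the same array read -10.02.

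**Figure D1:**
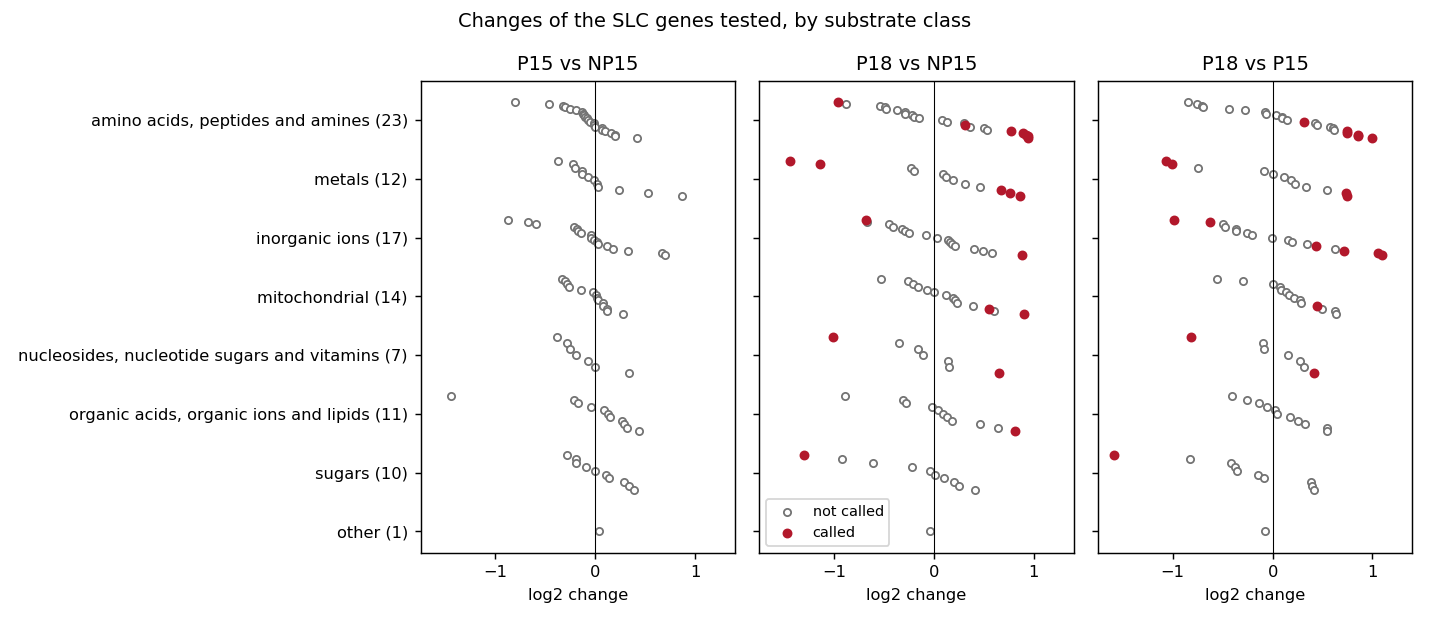
Each point is 1 of the 95 SLC genes tested, placed by its log2 change (horizontal axis) in P15 vs NP15, P18 vs NP15 and P18 vs P15, and sorted within its substrate class, with the class size in brackets. Filled red points passed an adjusted p of 0.05 (limma, Benjamini-Hochberg): none in the first panel, and 20 in each of the other panels, 14 of them to the right of 0.

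P15 vs NP15 asks how the corpus luteum of early pregnancy differs from that of the cycle on the same day. No SLC gene passed the test: 0 of 95 were called at an adjusted p under 0.05 (limma with Benjamini-Hochberg adjustment over all 12337 genes), where 0.981% of all genes were called. An unadjusted p under 0.05 was found for 10 of the 95 SLC genes and for 1081 of all 12337 genes. The median log2 change of the SLC genes was -0.018, against -0.056 for all genes, with 42 members above 0 and 53 below. In 5 SLC genes the P15 values all lay below the NP15 values and in 0 all lay above, while 6.48% of all genes had groups that did not overlap in one direction or the other. Those 5 were SLC12A2, SLC39A5, SLC25A11, SLC35A1 and SLC22A6, and the probes of all but SLC39A5 were in the outer 24 array rows at either end, where 20 of the 95 members lay.

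SLC12A2 encodes the sodium, potassium and chloride cotransporter NKCC1. At its brighter probe, in the last array row, the values were -0.82, -0.87, -0.84 and -0.39 in NP15, -1.39, -1.56, -1.35 and -1.32 in P15, and -1.14, -1.34, -1.81 and -1.34 in P18. All P15 and P18 arrays read below all NP15 arrays there. The log2 change in P15 vs NP15 was -0.68 (SE 0.16, adjusted p = 0.0891, limma), and it was 0.078 after each array was adjusted for the running median of neighbouring rows. It passed the threshold without P18 replicate 3, at an unchanged -0.68 and an adjusted p of 0.0426. The second probe, in row 46, read -4.44, -4.72, -4.65 and -4.04 in NP15 and -4.62, -4.40, -4.38 and -3.80 in P15, a log2 change of 0.16 with overlapping groups. Without the row adjustment the pair of SLC12A2 probes thus differed in direction between P15 and NP15, and neither change was called.

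Over all genes the median log2 change of P15 vs NP15 moved with the array row, from 0.20 in rows 1 to 8 to -0.39 in rows 185 to 192, and 3.75% of genes in the outer rows were called against 0.0647% in the inner rows. Among the SLC genes, 5 of the 20 in outer rows and 5 of the 75 in inner rows had an unadjusted p under 0.05. Over all genes it was 671 of 3063 in outer rows and 410 of 9274 in inner rows. How much the row contributed to each of the SLC values was not tested beyond the adjusted values given with them.

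**Figure D2:**
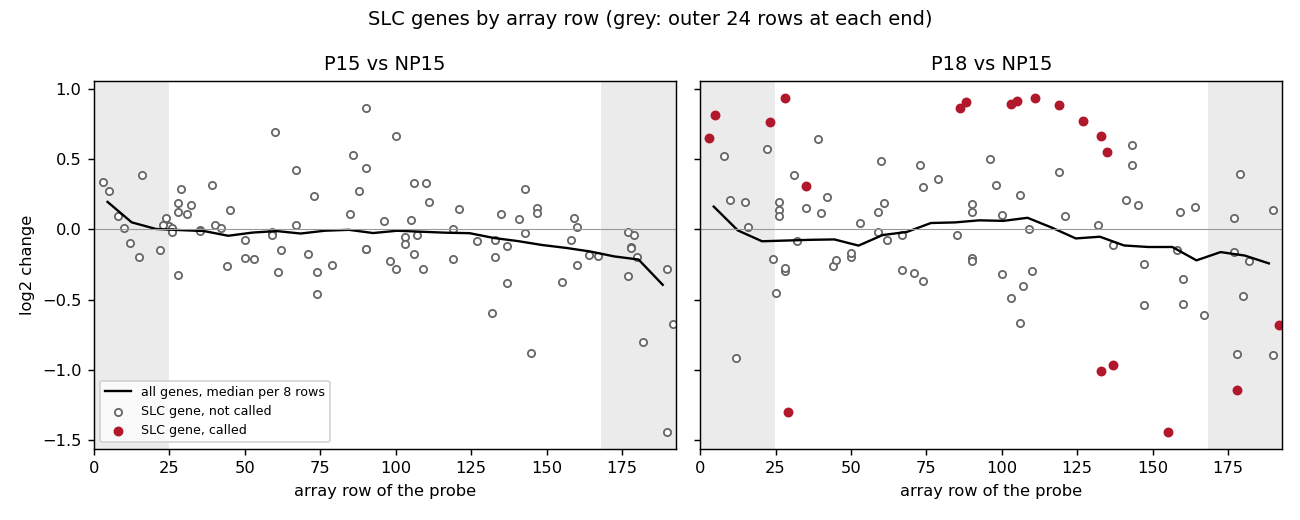
Log2 change of each SLC gene (points) against the array row of its probe, for P15 vs NP15 (left) and P18 vs NP15 (right), with the median over all genes in steps of 8 rows (line) and the outer 24 rows at each end shaded grey. The line runs from 0.20 down to -0.39 from left to right in the first panel, and the called members of the second panel (filled) lie both in and outside the shaded rows.

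SLC22A6, the organic anion transporter OAT1, is named because its values stood out. It read -5.32, -5.15, -4.94 and -5.00 in NP15 and -6.68, -6.64, -6.11 and -6.77 in P15, also near the last row. In P18 it read -5.14, -5.26 and -5.26 on 3 arrays and -8.34 on P18 replicate 2, where that value is the lowest that the array gives. The log2 change in P15 vs NP15 was -1.44 (SE 0.59, adjusted p = 0.496, limma), and it was -0.92 after the row adjustment. Without P18 replicate 2, which enters this comparison only through the shared spread, the same -1.44 had an adjusted p of 0.00155, and SLC22A6 was then the 1 SLC gene called. It was also the 1 called when the 8 arrays of NP15 and P15 were fitted alone, with an adjusted p of 0.00974.

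SLC39A5 and SLC25A11 were lower in every P15 array than in every NP15 array by smaller steps. SLC39A5, a zinc importer, changed by -0.37 (SE 0.11, adjusted p = 0.198, limma), and SLC25A11, the carrier that exchanges oxoglutarate for malate, changed by -0.33 (SE 0.11, adjusted p = 0.315, limma). SLC26A10, of the SLC26 anion transporter family, changed by 0.67 (SE 0.23, adjusted p = 0.373, limma), with overlapping groups. The spread between cows was wide in several members of the set: the SD in NP15 had a median of 0.36 over the 95 genes and reached 1.31 for SLC7A5.

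The comparisons of P18 with NP15 and with P15 ask what differs by day 18 of gestation. They share the 4 P18 arrays, so their values are given side by side and neither supports the other. In P18 vs NP15, 20 of 95 SLC genes were called (21.1%, against 28.9% of all genes), 14 higher and 6 lower in P18. In P18 vs P15, 20 were called (21.1%, against 28.3% of all genes), again 14 higher and 6 lower. The SLC share was therefore below that of all genes in both. By direction, 10.4% of all genes were called higher and 18.6% lower in P18 vs NP15. In P18 vs P15 it was 12.8% higher and 15.5% lower. In this fit, lower calls were the more numerous over all genes and higher calls among the SLC genes. After adjustment for neighbouring rows, 9 SLC genes were higher and 10 lower in P18 vs P15. Quantile normalization gave 15 higher and 10 lower SLC genes in P18 vs NP15, and 11 and 9 in P18 vs P15. No shares of all genes by direction are given for the row adjustment or quantile normalization, so those SLC splits stand alone. The median log2 change of the SLC genes was 0.09 in P18 vs NP15, where that of all genes was -0.06, and 0.11 in P18 vs P15, where that of all genes was -0.030.

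Groups did not overlap for 13 SLC genes that were higher and 6 that were lower in P18 vs NP15, and for 18 higher and 10 lower in P18 vs P15, against 30.4% and 34.6% of all genes in either direction. By position, 15 of 75 SLC genes in inner rows and 5 of 20 in outer rows were called in each comparison. Over all genes the shares were 27.7% in inner and 32.7% in outer rows for P18 vs NP15, and 27.3% and 31.1% for P18 vs P15. Without the fourth NP15 array 22 SLC genes were called in P18 vs NP15, 17 higher and 5 lower, of which 18 were among the 20, and 24 were called in P18 vs P15. Without P15 replicate 3, 12 were called in P18 vs P15, 11 of them among the 20. Centring each array on its median raised the median change of all genes to 0.18 in P18 vs NP15 and 0.20 in P18 vs P15. The SLC calls were then 23 higher and 3 lower, and 27 higher and 4 lower. No shares of all genes are given for the fits without an array or with centring, so these SLC counts stand alone. The SLC median lay above that of all genes by 0.154 and 0.142, and by 0.085 and 0.098 with normexp, another background correction.

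Of the 6 lower calls in P18 vs NP15, 4 had no P18 spot well above background, as had 3 of the 6 in P18 vs P15. Such genes passed the filter on dim probes only through the groups where they are high, so their lower calls support no count. Among the 14 higher calls in P18 vs P15, SLC26A6 had no spot well above background in either group. It passed the filter through NP15 alone, so its call supports no count either. SLC30A3, called higher in both comparisons, had 1 of 4 P18 spots well above background. Among the 76 SLC genes well above background on all 12 arrays, 12 were higher and 2 lower in P18 vs NP15, and 12 and 3 in P18 vs P15. The shares of all genes under that filter are not given here, so this split is not set against theirs. Cell type lists were read in the same samples, beside the 18.6% lower and 10.4% higher calls of all genes in P18 vs NP15. Of the fibroblast, pericyte and smooth muscle list, 4 of 6 genes were lower and 0 higher (median log2 change -1.13). Of 7 endothelial markers, 3 were lower and 0 higher (median -0.31). The luteal list, with 2 of 8 markers lower and 1 higher (median -0.35), was near those shares. Among these, 1 lower marker was saturated on all 4 NP15 arrays, and its probe lies in array row 192. The mean log2 value of the fibroblast list per array was 1.29 to 1.72 in P18, against 2.21 to 2.60 in NP15 and 2.11 to 2.52 in P15. The part of these cell types in the SLC changes was not tested.

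**Figure D3:**
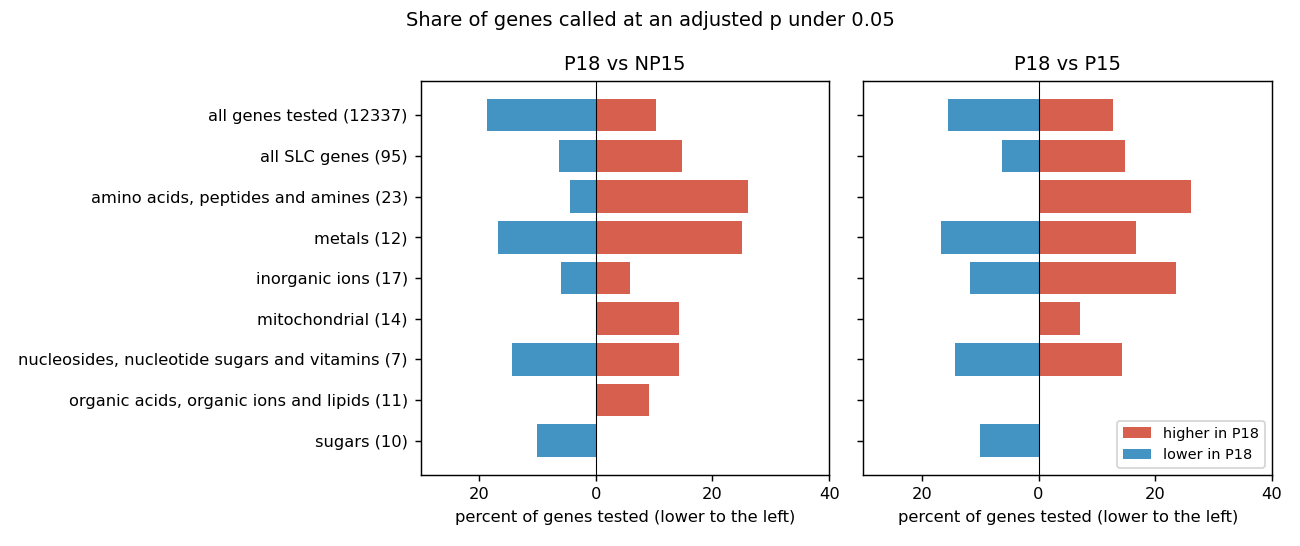
Percent of the genes tested that were called higher (right of 0) or lower (left of 0) in P18. Shown are all genes, all SLC genes and 7 substrate classes, with the number tested in brackets. Calls at spots not well above background are counted too. Among all genes the lower calls outnumber the higher ones, 18.6% against 10.4% in P18 vs NP15, and among the SLC genes 14 of the 20 calls in each panel are higher (9 of 19 in P18 vs P15 after the row adjustment).

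Carriers of amino acids, peptides and amines were higher in P18 more often than lower. Of 23 tested, 6 rose and 1 fell relative to NP15, and 6 rose and 0 fell relative to P15. That was 30.4% and 26.1% of the class called, near the 28.9% and 28.3% of all genes. Called higher were 26.09% of the class in each, against 10.4% and 12.8% of all genes. Whether this class, or any class below, differs from all genes was not tested. The genes that rose were SLC6A9, SLC38A3, SLC7A2, SLC6A3, SLC18A2 and SLC15A4 in both comparisons, by 1.24-fold to 2.00-fold. SLC6A9 encodes the glycine transporter GLYT1. It read 0.68, 0.75, 1.18 and 1.24 in NP15, 0.84, 0.97, 0.86 and 0.85 in P15, and 1.60, 1.67, 2.02 and 1.64 in P18. Every P18 array exceeded all 8 others. Its log2 change was 0.77 against NP15 (SE 0.15, adjusted p = 0.00306, limma) and 0.85 against P15 (SE 0.15, adjusted p = 0.00181, limma), or 1.71-fold and 1.81-fold.

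SLC38A3 encodes SNAT3, a sodium-coupled carrier of glutamine, asparagine and histidine. Its values were -5.84, -6.44, -5.55 and -5.60 in NP15, -5.92, -6.29, -5.81 and -5.82 in P15, and -5.19, -5.09, -4.73 and -4.85 in P18. The P18 values again lay above all others. The change was 0.90 (SE 0.20, adjusted p = 0.0069, limma) against NP15 and 1.00 (SE 0.20, adjusted p = 0.00399, limma) against P15. The other SLC38 genes, SLC38A1, SLC38A2 and SLC38A5, were not called in either comparison.

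SLC7A2 encodes CAT-2, a carrier of arginine, lysine and ornithine. It read -0.23, -0.69, -0.85 and -0.03 in NP15, -0.05, -0.03, -0.65 and -0.29 in P15, and 0.67, 0.65, 0.21 and 0.41 in P18. The P18 arrays were the 4 with positive values. The change was 0.94 (SE 0.21, adjusted p = 0.00623, limma) against NP15 and 0.74 (SE 0.21, adjusted p = 0.0197, limma) against P15. Against P15 the call was lost without P15 replicate 3, P18 replicate 1 or P18 replicate 2, with changes of 0.61 to 0.69, and after the row adjustment, at 0.54.

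A pair of monoamine carriers, better known from neurons, rose at low signal. SLC6A3, the dopamine transporter, read -5.78, -6.18, -5.92 and -5.88 in NP15, -5.52, -5.48, -5.82 and -6.17 in P15, and -4.76, -5.29, -5.08 and -4.87 in P18. Its change was 0.94 (SE 0.18, adjusted p = 0.00252, limma) against NP15 and 0.75 (SE 0.18, adjusted p = 0.0091, limma) against P15. SLC18A2, the vesicular monoamine transporter VMAT2, is outside the naming rule and is named because it was called. It read -4.54, -4.73, -4.40 and -4.73 in NP15, -4.21, -4.50, -4.73 and -4.69 in P15, and -2.99, -3.89, -3.77 and -4.09 in P18, with a change of 0.92 (SE 0.22, adjusted p = 0.00925, limma) and 0.85 (SE 0.22, adjusted p = 0.0137, limma). All 12 spots of both genes were well above background, and neither gene's P18 values overlapped the others. The negative controls were also higher in P18, with a net signal of 80.4 to 99.3 against 34.1 to 40 in P15 and 35 to 38.8 in NP15. Their part in rises at low signal, here and for SLC38A3, SLC39A4 and SLC9A3R1, was not tested. The serotonin transporter SLC6A4 was not called, with changes of 0.31 and 0.61, and SLC6A2, the noradrenaline transporter, was too dim to test.

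SLC15A4, a histidine and peptide carrier of lysosomes, made the smallest step of the 6, and is likewise named because it was called. It ran from 1.48 to 1.60 in NP15, from 1.48 to 1.67 in P15 and from 1.81 to 1.90 in P18. The change was 0.31 (SE 0.08) in both comparisons, with adjusted p of 0.0185 and 0.0168 (limma). The call against NP15 was lost without NP15 replicate 1 and the call against P15 without P15 replicate 3, each at 0.29, and quantile normalization ended both at 0.20 and 0.19, as did the row adjustment at 0.23 in each.

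SLC43A3 was the amino acid class member that fell against NP15, although it is known as a carrier of purine bases and is in the class by its family number alone. It read -5.66, -5.70, -5.37 and -7.11 in NP15, -6.24, -5.93, -6.08 and -6.07 in P15, and -7.24, -6.85, -6.73 and -6.88 in P18. The fourth NP15 array read within the P18 range, and no P18 spot was well above background. The change of -0.96 (SE 0.31, adjusted p = 0.0378, limma) supports no fold. It was not called with only the 8 arrays compared or with median centring. The call was lost without NP15 replicate 1, 2 or 3, P15 replicate 2 or 3, or any 1 of the P18 arrays, at -0.77 to -1.03, and another background correction (normexp) gave 0.025.

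The heavy chain SLC3A2, which brings several light chains of the SLC7 family to the cell surface, and the light chains tested were not called in any comparison. SLC3A2 changed by -0.20 in P18 vs NP15 and by -0.07 in P18 vs P15. SLC7A5, the LAT1 carrier of large neutral amino acids, had the widest NP15 values of the 95 members: 3.08, 1.83, 1.46 and 4.34 in NP15, 1.86, 2.49, 2.28 and 3.58 in P15, and 1.38, 2.67, 1.56 and 1.57 in P18. Its change of -0.88 against NP15 had a 95% confidence interval of -2.19 to 0.42, so a sizeable fall and no change both lie within it. SLC7A11, the cystine and glutamate exchanger, changed by -0.22 (interval -1.29 to 0.84) and SLC7A7 by 0.53 (interval -0.15 to 1.21). The 12 members of the class not named by rule or call changed by -0.54 to 0.51 in P18 vs NP15 and by -0.71 to 0.61 in P18 vs P15.

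**Figure D4:**
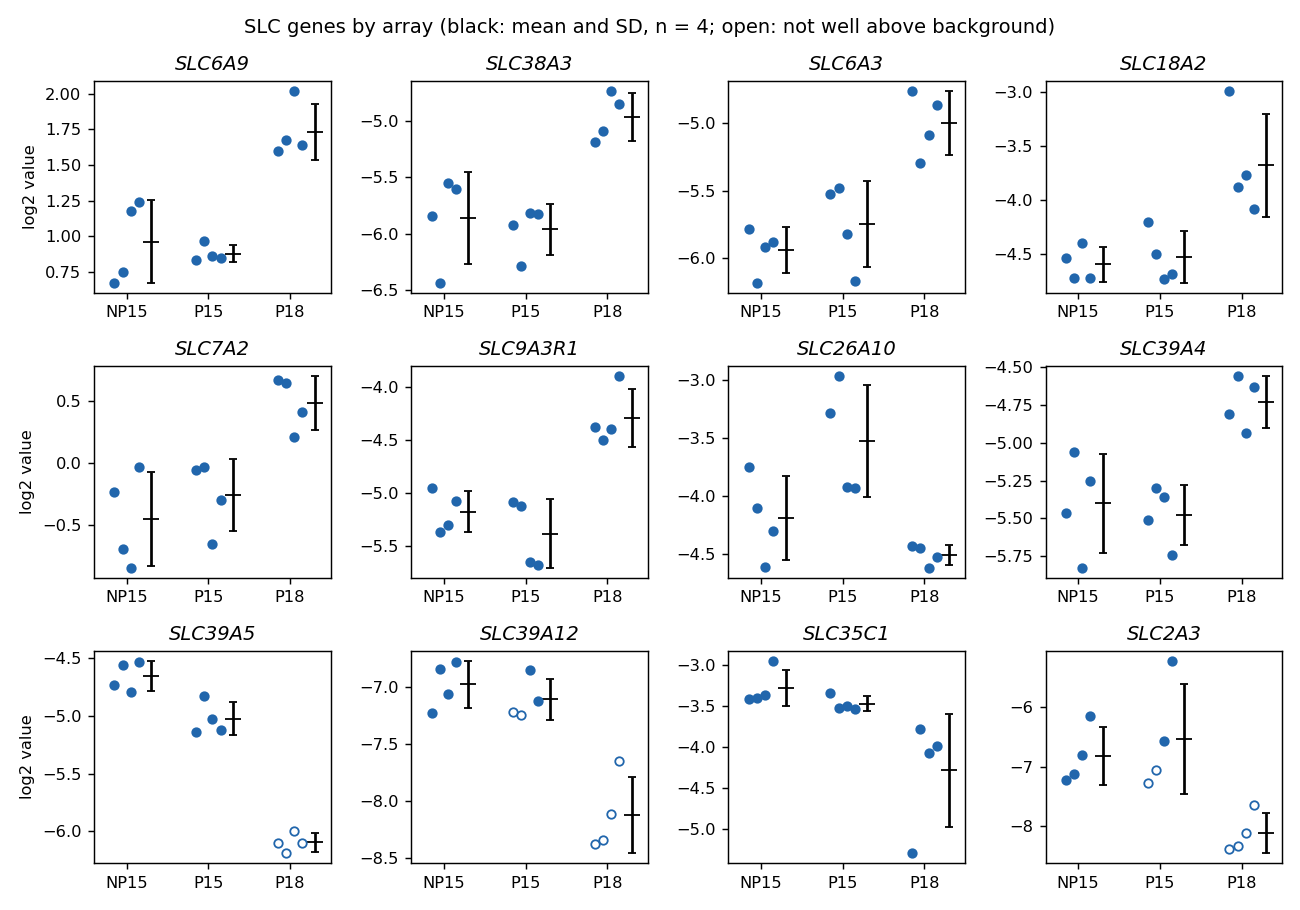
Log2 value of 12 SLC genes on each array (points, 4 per group), with the group mean and SD in black and open points for spots not well above background. For SLC6A9, SLC38A3, SLC6A3, SLC18A2, SLC7A2, SLC9A3R1 and SLC39A4 all P18 points lie above the other 8, and for SLC39A5, SLC39A12 and SLC2A3 all 4 P18 points are open and lowest.

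Metal carriers moved in both directions. Of 12 tested, 3 rose and 2 fell relative to NP15 (41.7%, against 28.9% of all genes). Relative to P15, 2 rose and 2 fell (33.3%, against 28.3%). Both that fell, SLC39A5 and SLC39A12, had no P18 spot well above background. Zinc importers of the SLC39 (ZIP) family were on both sides. SLC39A4, the ZIP4 importer known from the intestine, read -5.47, -5.06, -5.83 and -5.25 in NP15, -5.51, -5.30, -5.36 and -5.74 in P15, and -4.81, -4.56, -4.93 and -4.63 in P18. All P18 arrays were above the rest. It rose by 0.67 (SE 0.17, adjusted p = 0.0134, limma) against NP15 and by 0.75 (SE 0.17, adjusted p = 0.00814, limma) against P15.

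SLC39A5, or ZIP5, fell in both comparisons and had the smallest p of the SLC genes in each. It read -4.74, -4.56, -4.79 and -4.53 in NP15, -5.14, -4.82, -5.03 and -5.12 in P15, and -6.10, -6.19, -6.00 and -6.10 in P18, so that the 3 groups did not overlap. All 8 NP15 and P15 spots were well above background and no P18 spot was. On the scanner's own background-corrected signal P18 was at least 2.25-fold lower than NP15 (fitted log2 change -1.44, SE 0.11, adjusted p = 1.44e-05, limma) and at least 1.74-fold lower than P15 (-1.07, SE 0.11, adjusted p = 8.11e-05, limma). For these bounds each P18 array was given its lowest value well above background, or the probe's own value where that was higher. With normexp background correction the changes were -0.52 and -0.32, which are smaller than these bounds, so the bounds hold for the scanner's correction alone. Both calls held with normexp. SLC39A5 passed the filter on dim probes only through NP15 and P15, where it is high. Its calls are therefore given as a description and support no count.

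SLC39A12, or ZIP12, read -7.23, -6.84, -7.06 and -6.79 in NP15, -7.22, -7.24, -6.85 and -7.12 in P15, and -8.38, -8.34, -8.12 and -7.65 in P18. The P18 values are the lowest that each of those arrays gives to any probe, so they mark a floor and no fold is given. It passed the filter through NP15 alone, so its calls say nothing beyond that choice. The fitted changes of -1.14 and -1.01 became -0.18 and -0.24 with normexp, neither called. SLC30A3 encodes ZnT3, which loads zinc into vesicles, and is named because it was called. It ran from -7.24 to -6.92 in NP15, from -7.37 to -6.69 in P15 and from -6.61 to -5.70 in P18, but only 1 of its 4 P18 spots was well above background. Its changes of 0.77 (SE 0.20, adjusted p = 0.0145, limma) and 0.74 (SE 0.20, adjusted p = 0.0179, limma) were 0.55 and 0.46 with quantile normalization and to 0.35 and 0.27 with cyclic loess, neither called, and the second call was also lost without P15 replicate 3, at 0.61.

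For iron, SLC11A1 (NRAMP1) is a phagosome carrier of macrophages and SLC11A2 (DMT1) the general divalent metal carrier. SLC11A1 read -1.25, -1.80, -2.0 and -2.94 in NP15, -1.44, -1.50, -1.46 and -1.48 in P15, and -0.87, -1.19, -1.44 and -1.04 in P18. The NP15 values ran down to that of the fourth array and reached into the P18 range at the top. The change against NP15 was 0.86 (SE 0.28, adjusted p = 0.0407, limma), and 0.55, still called, without the fourth NP15 array. The call was lost without NP15 replicate 2 or 3, any 1 of the P15 arrays, or P18 replicate 1, 2 or 4, at 0.78 to 0.93, with array weights, at 0.59, and after the row adjustment, at 0.72. Fitting only the 8 arrays compared also lost the call. Against P15 SLC11A1 was not called (0.33, interval -0.29 to 0.96). Beside it stood the 4 tested genes of the macrophage and myeloid list, CD68, CD14, AIF1 and MRC1. In P18 vs NP15 they had 0 calls and a median change of 0.45. CD68 changed by 0.87 there, with groups that did not overlap (adjusted p = 0.0626, limma). In P18 vs P15 CD68 was called higher, by 0.99 (adjusted p = 0.0393, limma). CD14, AIF1 and MRC1 were called in neither comparison. The list means per array were -1.37 to -0.34 in P18, against -1.71 to -0.76 in NP15 and -1.83 to -0.65 in P15. Their part in the change of SLC11A1 was not tested. SLC11A2 changed by 0.31 (interval -0.30 to 0.93) and 0.54 (interval -0.07 to 1.16). The 6 other metal carriers changed by -0.23 to 0.46 in P18 vs NP15 and by -0.74 to 0.22 in P18 vs P15, and none was called.

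Of 17 genes of inorganic ion transport, 4 rose and 2 fell relative to P15 (35.3%, against 28.3% of all genes). SLC26A6, among the 4 that rose, had no spot well above background in P15 or P18. Relative to NP15, 1 rose and 1 fell (11.8%, against 28.9%). Whether the comparisons differ was not tested. SLC9A3R1 was the one that rose in both. It encodes NHERF1, a scaffold that ties the sodium and hydrogen exchanger NHE3 and other carriers to the cytoskeleton. It read -4.96, -5.37, -5.31 and -5.08 in NP15, -5.08, -5.13, -5.66 and -5.68 in P15, and -4.38, -4.50, -4.39 and -3.89 in P18. The P18 arrays lay above all others, with a change of 0.88 (SE 0.19, adjusted p = 0.00477, limma) and 1.09 (SE 0.19, adjusted p = 0.00154, limma). Its relative SLC9A3R2, which encodes NHERF2 and is named because it was called, went the other way against P15, with values of 3.53 to 3.81 in P15 and 2.87 to 3.39 in P18. That change was -0.62 (SE 0.19, adjusted p = 0.0311, limma), lost without P15 replicate 1, 2 or 4 or P18 replicate 2, 3 or 4 at -0.55 to -0.63 and with median centring at -0.40, and against NP15 it was -0.29 and not called.

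SLC26A10 fell against P15. It read -3.75, -4.10, -4.60 and -4.30 in NP15, -3.28, -2.96, -3.91 and -3.93 in P15, and -4.43, -4.45, -4.62 and -4.52 in P18. The P15 values were the higher group and NP15 and P18 overlapped. The change was -0.98 (SE 0.23, adjusted p = 0.0098, limma) against P15 and -0.32 (adjusted p = 0.341, limma) against NP15. With normexp the change against P15 was -0.58, still called.

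SLC26A2, the sulfate transporter of cartilage and other tissues, rose against P15. It read -5.24, -5.34, -5.43 and -4.99 in P15 and -4.30, -4.77, -4.65 and -4.39 in P18, a change of 0.72 (SE 0.21, adjusted p = 0.0244, limma). The call was lost without P15 replicate 1, 2 or 3 or P18 replicate 1 or 4, at 0.64 to 0.72. Against NP15 the change was 0.58 (adjusted p = 0.0595, limma), with the fourth NP15 array, at -4.49, inside the P18 range. SLC4A2, the anion exchanger AE2, and SLC26A6, another anion exchanger, are named because they were called against P15. Neither call held when only the 8 arrays compared were fitted. SLC4A2 changed by 0.44 (SE 0.15, adjusted p = 0.043, limma) with 1 P15 array inside the P18 range, and lost the call without NP15 replicate 1, 2 or 3, P15 replicate 2, 3 or 4, or any 1 of the P18 arrays, at 0.34 to 0.48, and after the row adjustment, at 0.28. SLC26A6 had no spot well above background in P15 or P18, so its change of 1.05 (SE 0.33, adjusted p = 0.0353, limma) carries no fold, and the call was lost without P15 replicate 2, 3 or 4 or P18 replicate 1, 3 or 4, at 0.73 to 1.14, with quantile normalization, at 0.52, and with cyclic loess, at 0.31.

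SLC12A2 was lower in P18 than in NP15 at the row 192 probe, by -0.68 (SE 0.16, adjusted p = 0.00819, limma). The row adjustment gave -0.39, no longer called. At the row 46 probe P18 read -4.80, -5.10, -5.01 and -4.81, all below NP15, a change of -0.46 (adjusted p over probes 0.0944, limma). Against P15 the row 192 probe changed by -0.0019 and the row 46 probe by -0.63 (adjusted p over probes 0.0311, limma), so the probes again differed. SLC4A5, a sodium bicarbonate cotransporter, changed by 0.03 and 0.63 at its brighter probe and by 0.10 and -0.0050 at its second probe, none called. A further 8 members of the class changed by -0.67 to 0.49 in P18 vs NP15 and by -0.49 to 0.34 in P18 vs P15.

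In the SLC25 family, classed as mitochondrial, 2 of 14 genes rose and 0 fell against NP15 (14.3%, against 28.9% of all genes). Against P15, 1 rose and 0 fell (7.14%, against 28.3%). SLC25A16, linked to transport of coenzyme A, read 0.76, 0.22, 0.38 and 0.55 in NP15, 0.54, 0.63, 0.44 and 0.75 in P15, and 1.1, 1.13, 0.82 and 1.06 in P18. The P18 arrays were above all others. The change was 0.55 (SE 0.13, adjusted p = 0.00967, limma) against NP15 and 0.44 (SE 0.13, adjusted p = 0.0284, limma) against P15. The second call was lost without P15 replicate 1, 2 or 3 or P18 replicate 1, 2 or 4, at 0.39 to 0.45, and under quantile normalization and the row adjustment, at 0.38 and 0.32.

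Of the 3 ADP/ATP carriers tested, which swap cytosolic ADP for mitochondrial ATP, 1 was called, against NP15 only. Whether the 3 differ from each other was not tested. SLC25A4, the form known from heart and muscle, read 0.57, 0.33, 0.30 and -1.04 in NP15, 0.25, 0.40, 0.38 and 0.23 in P15, and 1.00, 0.84, 1.11 and 0.83 in P18. All P18 arrays exceeded the other 8, and the fourth NP15 array fell far below its group. The change against NP15 was 0.91 (SE 0.28, adjusted p = 0.034, limma). Without the fourth NP15 array it was 0.55, still called, and without any 1 of the P18 arrays the call was lost at 0.85 to 0.94, as it was after the row adjustment, at 0.77. Fitting only the 8 arrays compared also lost the call. Against P15 the change was 0.63 (interval 0.01 to 1.26, adjusted p = 0.121, limma).

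SLC25A5 changed by -0.26 (interval -0.56 to 0.04) against NP15 and by 0.00052 (interval -0.30 to 0.30) against P15, not called in either. SLC25A6 changed by -0.07 (interval -0.36 to 0.22) and 0.08 (interval -0.21 to 0.36). Its P18 values of 5.66 to 5.80 lay within the NP15 range of 5.53 to 6.19. The phosphate carrier SLC25A3, which supplies phosphate for ATP synthesis, read 3.36, 3.23, 3.17 and 1.93 in NP15 and 3.01 to 3.26 in P18, with changes of 0.21 and 0.14 that were not called. SLC25A11 changed by -0.16 and 0.17 in the comparisons with P18. The 8 SLC25 genes not named so far changed by -0.53 to 0.60 and by -0.55 to 0.62.

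Carriers of nucleosides, nucleotide sugars and vitamins numbered 7, with 1 that rose and 1 that fell in each comparison with P18 (28.6%, near the 28.9% and 28.3% of all genes). SLC35C1, which carries GDP-fucose into the Golgi apparatus, fell in both. It read -3.41, -3.40, -3.36 and -2.95 in NP15, -3.34, -3.52, -3.50 and -3.54 in P15, and -5.30, -3.79, -4.07 and -3.99 in P18. All P18 arrays were below the rest, P18 replicate 1 by the widest margin. The change was -1.01 (SE 0.28, adjusted p = 0.0187, limma) against NP15 and -0.81 (SE 0.28, adjusted p = 0.0479, limma) against P15. The first call was lost with quantile normalization, median centring and cyclic loess, at -0.78, -0.77 and -0.67. The second was lost with the same settings at -0.60, -0.59 and -0.56, with normexp at -0.46, and without NP15 replicate 1, 2 or 3, any 1 of the P15 arrays, or P18 replicate 3 or 4, at -0.77 to -0.91. Without P18 replicate 1 the changes were -0.67 and -0.47, both called. Neither call held when only the 8 arrays compared were fitted, and the second was also lost with the inner rows alone.

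SLC35B2 carries PAPS, the sulfate donor, into the Golgi apparatus. It read 1.12, 1.53, 1.35 and 1.75 in NP15, 1.90, 1.74, 1.72 and 1.75 in P15, and 2.03, 2.37, 2.00 and 1.95 in P18. It rose by 0.65 (SE 0.14, adjusted p = 0.00666, limma) against NP15, but its probe lies in array row 3 and the row adjustment gave 0.26, not called. SLC35A1, the carrier of CMP-sialic acid, rose by 0.41 (SE 0.12, adjusted p = 0.0232, limma) against P15, with its probe in row 190 and an adjusted value of 0.07, not called. Without P15 replicate 2 or 3 or P18 replicate 1 it was also lost, at 0.34 to 0.39. SLC29A1, the nucleoside transporter ENT1, changed by 0.15 (interval -0.24 to 0.54) and 0.16 (interval -0.23 to 0.55).

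Among 11 carriers of organic acids, organic ions and lipids, 1 rose against NP15 (9.09%, against 28.9% of all genes called) and none was called against P15. It was SLC10A1, NTCP, the bile acid carrier of liver, which read -6.83, -6.69, -6.46 and -6.47 in NP15, -6.05, -6.19, -6.10 and -7.02 in P15, and -5.38, -5.80, -5.49 and -6.52 in P18. The fourth P18 array lay among the NP15 values and was the one P18 array where the spot was not well above background. The change was 0.82 (SE 0.27, adjusted p = 0.0433, limma), and the call was lost without any 1 of the NP15 arrays, P15 replicate 2 or 3, or P18 replicate 1, 2 or 3, at 0.68 to 0.87. It was also lost under quantile normalization, cyclic loess and the row adjustment, at 0.71, 0.61 and 0.58. SLC16A1 (MCT1), a carrier of lactate, pyruvate and ketone bodies, read -1.27, -1.45, -1.30 and -2.81 in NP15, and -1.33, -1.50, -1.14 and -1.01 in P18, a change of 0.46 (interval -0.20 to 1.13) that was not called. SLC16A7 (MCT2) changed by -0.28 and -0.40, and the fatty acid transporter SLC27A1 by -0.02 (interval -0.69 to 0.66) and 0.02 (interval -0.65 to 0.70). The 6 members of the class not named so far changed by -0.31 to 0.64 in P18 vs NP15.

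Of 10 genes in the sugar carrier families, which also hold carriers of inositol and vitamins, 0 were called higher and 1 lower in each comparison. That was 10% called, against 28.9% and 28.3% of all genes. The lower one passed the filter through NP15 alone. SLC2A3, the glucose transporter GLUT3, read -7.22, -7.12, -6.80 and -6.15 in NP15, -7.28, -7.05, -6.57 and -5.23 in P15, and -8.38, -8.34, -8.12 and -7.65 in P18. The P18 values are the same floor values as those of SLC39A12 and support no fold, and 2 of the 4 P15 spots were well above background. The fitted changes were -1.30 and -1.59, given as a description. With normexp they were -0.024 and -0.24, neither called, and the first was also lost without NP15 replicate 3 or 4 or P18 replicate 1, 2 or 3, at -1.07 to -1.30, and with median centring, at -1.06.

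The other glucose and fructose carriers were not called. SLC2A4 (GLUT4, the insulin-responsive form) changed by 0.25 (interval -0.31 to 0.80) against NP15 and -0.09 (interval -0.64 to 0.47) against P15. SLC2A8 (GLUT8) changed by 0.20 and 0.40, with all P18 arrays above all P15 arrays in the second case (adjusted p = 0.0823, limma). SLC2A6 changed by -0.61 and -0.42 with an SD of 0.90 in NP15. SLC2A5, the fructose carrier, had no P18 spot well above background, with changes of -0.04 and -0.15. The urea transporter SLC14A1, the single gene of another class, changed by -0.04 and -0.08.

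The partner genes of SLC transport fixed as a list are ion pumps, carrier chaperones and neighbouring enzymes, and 27 of 37 could be tested. In P15 vs NP15, 0 were called, and in each comparison with P18, 2 rose and 6 fell. That is 8 of 27, near the share of all genes called, 28.9% and 28.3%. PDZK1 and SLCO2B1, among those that fell, had no P18 spot well above background, so their lower calls support no count. ATP1B1, a beta subunit of the sodium pump that powers sodium-coupled carriers, fell by 0.73 against NP15 (adjusted p = 0.0186, limma). BSG, which escorts MCT1 to the surface, fell by 0.39 (adjusted p = 0.0489, limma). MPC2, a subunit of the mitochondrial pyruvate carrier, rose by 0.60 (adjusted p = 0.00482, limma). OXSR1, a kinase that activates NKCC1, rose by 0.94 (adjusted p = 0.0027, limma), while its target SLC12A2 read as described above.

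The 19 genes left untested were not well above background on more than 3 arrays, and 10 of them on none. They were SLC1A1, SLC1A2, SLC6A2, SLC7A9 and SLC7A14 among amino acid and amine carriers, SLC4A1, SLC8A1, SLC24A1, SLC26A4 and SLC34A2 among ion carriers, SLC2A2, SLC2A12, SLC5A1 and SLC5A7 in the sugar families, and SLC10A4, SLC10A6, SLC17A2, SLC17A3 and SLC22A9 among organic acid and lipid carriers. SLC4A1, the band 3 protein of red cells, had no spot well above background. Dim readings allow no statement that these genes are silent in the corpus luteum.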

How the data were processed

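RNA from whole corpus luteum of 12 cows (400 ng per array, per the labels) was hybridised to 1-colour Agilent bovine arrays and read with Feature Extraction 9.5, per the submitters' processing notes. The deposited scanner files give background-corrected probe intensity, and the deposited value table gives log2 values of the same signals. That table was the log2 signal minus a constant per array, within 1.79e-06, and served as an alternative. Here the log2 of the processed intensity minus the array's 75th percentile was fitted with limma 3.58.1 (R 4.3.3), 1 mean per group, over all 12 arrays and all 12337 genes, with Benjamini-Hochberg adjustment at 0.05. The scripts were tested on simulated data.

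Control spots were left out, and outlier spots, at most 9 per array, were set to missing. Dim probes were filtered as the report states. The naming rule took the 4 members with the smallest p in P15 vs NP15, up to 3 called members per class with the smallest p in each P18 comparison (the 1 with the smallest p where none was called), members with several kept probes, and fixed role genes such as SLC3A2 with its light chains. It gave 39 genes, and 7 other called members and SLC22A6 were named after their values were seen, as were SLC6A4 and 3 SLC38 genes. The members and lists were chosen with earlier results of these data known. All 95 tested genes matched RefSeq symbols (ARS-UCD2.0, names only). SLC7A6 and SLC7A8 were not analysed here. Some single genes are not reported here. The replicate number is also the slide column. Same-number correlations ran from 0.0974 to 0.293 for P15 vs NP15 and from -0.0439 to 0.173 for the comparisons with P18, so not every pair passed 0.1 and the numbers were not taken to pair the samples.

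Alternatives were quantile normalization, median centring, cyclic loess, normexp (offset 50), other probe filters and probe averaging. Others were array weights, the replicate number as a block, a row adjustment, the inner rows alone, the 8 compared arrays alone, and each array left out. The slide as a block could be fitted for P15 vs NP15 only, whose arrays share 1 slide, so it tests nothing there.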

Additional observations from a re-analysis of the deposited data

Results flagged for a closer look

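In 141 groups of 4 arrays of the named SLC genes, the gap between an extreme array and its nearest neighbour was set against the group's whole range. It passed the 95% limit in 15 groups. The genes were named partly by their p-values or values in the same data, and the groups share arrays. The count is therefore not set against the 1 in 20 that the limit allows by chance. The fourth NP15 array accounted for 6 of the 15 groups. It read -0.386 for SLC12A2 (others -0.87 to -0.817), -2.81 for SLC16A1 (others -1.45 to -1.27) and 1.93 for SLC25A3 (others 3.17 to 3.36). It also read -1.04 for SLC25A4 (others 0.299 to 0.57), -7.20 for SLC2A5 (others -5.82 to -5.72) and -2.95 for SLC35C1 (others -3.41 to -3.36).

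Among the P15 arrays, replicate 4 read -7.02 for SLC10A1 (others -6.19 to -6.05) and 5.53 for SLC25A6 (others 5.72 to 5.76). P15 replicate 1 read 1.67 for SLC15A4 (others 1.48 to 1.51) and 1.90 for SLC35B2 (others 1.72 to 1.75). P15 replicate 2 read 1.73 for SLC2A8 (others 1.91 to 1.94).

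Among the P18 arrays, replicate 2 read -8.34 for SLC22A6 (others -5.26 to -5.14) and 2.67 for SLC7A5 (others 1.38 to 1.57). P18 replicate 1 read 2.17 for SLC25A11 (others 1.87 to 1.92), and P18 replicate 4 read 5.66 for SLC25A6 (others 5.78 to 5.80).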

How the results depend on the processing

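Of the calls in each comparison with P18, 8 held under every setting in which the gene was tested. They were SLC6A3, SLC6A9, SLC18A2, SLC38A3, SLC39A4, SLC39A5 and SLC9A3R1 in both, with SLC7A2 against NP15 and SLC26A10 against P15. Of these, SLC39A5 had no P18 spot well above background and passed the filter only where it is high. It was therefore not tested under the filter for probes well above background on all 12 arrays. In P15 vs NP15 the count of SLC genes called was 1 with the 8 arrays alone (SLC22A6) and 1 with array weights (SLC12A2), and 0 to 1 with each array left out. In P18 vs NP15 it was 34 with no filter on dim probes and 15 to 22 with each array left out. In P18 vs P15 it was 31 with median centring, 33 with no filter and 12 to 24 with each array left out. The share of calls that were higher, 70.0% in both, moved in P18 vs NP15 to 88.5% with median centring, 85.7% with normexp, 60% with quantile normalization and 58.8% with the row adjustment. In P18 vs P15 it moved to 87.1%, 84.2%, 55.0% and 47.4%. SLC43A3 reversed in P18 vs NP15 with normexp, to 0.025. The cause was not tested for these shifts. With the replicate number as a block, 0, 23 and 19 SLC genes were called in the 3 comparisons, and SLC35C1 and SLC4A2 lost their calls against P15. With the 8 arrays compared fitted alone, 17 SLC genes were called in P18 vs NP15 and 20 in P18 vs P15. SLC11A1, SLC25A4, SLC35C1 and SLC43A3 then lost their calls against NP15, and SLC4A2, SLC26A6 and SLC35C1 against P15. Normexp with the row adjustment was chosen after seeing the data. Signal close to background limits what can be said of 9 tested SLC genes with no P18 spot well above it. The part of the higher P18 negative control signal in calls at low signal, also those that always held, was not tested.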

Other observations

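A further 33 probes carry older or other names for genes that RefSeq now lists under SLC symbols, and 24 of these genes could be tested. In P15 vs NP15 0 were called, and in each comparison with P18 3 were higher and 2 lower (20.8%, against 28.9% and 28.3% of all genes). SLC52A3, a riboflavin transporter, rose by 0.98 against NP15 (adjusted p = 0.0018, limma) and by 0.82 against P15 (adjusted p = 0.0049, limma). SLC22A7, an organic anion transporter, rose by 0.77 (adjusted p = 0.0133, limma) and 0.93 (adjusted p = 0.0050, limma). SLC7A1, the arginine and lysine carrier CAT-1, changed by 1.23 and 1.55, but no P18 spot was well above background and no fold is given. SLC25A40, a mitochondrial carrier, changed by -1.32 and -1.15, and SLC7A6OS, a neighbour of SLC7A6 named for its place and no transporter, by -0.33 and -0.40. The iron exporter SLC40A1 was not called, with changes of -0.08 and -0.27.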
